A study of Saccharomyces cerevisiae with 16 samples.

Results

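Transcripts of 10 genes around the Snf1 kinase and the glucose repressors were followed in budding yeast through changes of carbon source, in cells lacking the histone deacetylase gene HDA1 (hda1Δ) and in wild type (WT). The genes were taken by name from the transcript rows of the 16 libraries, and they are 10 of 7126 transcripts. They are SNF1, SNF4, SIP1, SIP2 and GAL83 for the kinase, REG1 for its phosphatase, and MIG1, MIG2, MIG3 and NRG1 for repressors. The hda1Δ strain (YTK113, genotype given as hda1-/-) and the WT strain (YSB787) were grown in synthetic complete medium with raffinose (Ra-0). Both then received galactose for 15, 30 and 120 min (Gal-15, Gal-30, Gal-120), glucose for 30 and 120 min (Glu-30, Glu-120), and galactose again for 15 and 30 min. Galactose libraries with an added 1 in their labels (Gal-15-1, Gal-30-1) were read as this second galactose pulse. Polyadenylated RNA was sequenced, and levels are given as FPKM, fragment numbers scaled by transcript length and library size, which allows genes of unlike length to be set side by side.

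Each genotype had 1 library at each of the 8 stages, so no difference could be tested over replicates, and a difference between cultures cannot be told apart from one between conditions. Every interval in brackets is a 95% counting interval and leaves out variation between cultures. Each library also averages a whole culture, so that a change in all cells and a change in some cells cannot be told apart. Depth ran from 9.37 to 13.8 M fragments. HDA1 itself was at 0 to 0.162 FPKM in hda1Δ, against 27.0 to 38.8 FPKM in WT. All 10 genes passed the minimum mean of 1 FPKM, as did 5881 of 6685 nuclear ORFs, and none overlaps another gene or holds repeated sequence. Folds are ratios of FPKM plus 1, and a gene was called higher in hda1Δ at 1.7-fold or above and lower at 0.588 or below. A change between stages was called at 2-fold.

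Snf1 is the yeast AMP-activated protein kinase. It works as a trimer of the catalytic subunit Snf1, the regulatory subunit Snf4 and one of the alternative beta subunits Sip1, Sip2 and Gal83, which direct the kinase to its places in the cell. When glucose is scarce the kinase is active, inhibits the repressor Mig1, which then leaves the nucleus, and so allows genes for other carbon sources to be transcribed. When glucose is plentiful, Reg1 brings the phosphatase Glc7 to the kinase and silences it, and Mig1, Mig2 and Nrg1, zinc-finger proteins, hold those genes down, Mig1 and Nrg1 through the Cyc8-Tup1 co-repressor. MIG2 and MIG3 are themselves under the control of Rgt1, a repressor that glucose sensing relieves.

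Over all 80 values (10 genes at 8 stages), 7 were higher in hda1Δ, 3 were lower and 70 lay within the rule. Of the 5881 ORFs past the minimum mean, 3.32% to 9.35% were higher and 1.11% to 9.79% lower, depending on the stage. NRG1 and MIG3 gave all 7 of the higher calls. The 3 lower calls fell in the second galactose pulse, on MIG2, MIG3 and NRG1. No gene of the kinase or REG1 was called at any stage.

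**Figure D1:**
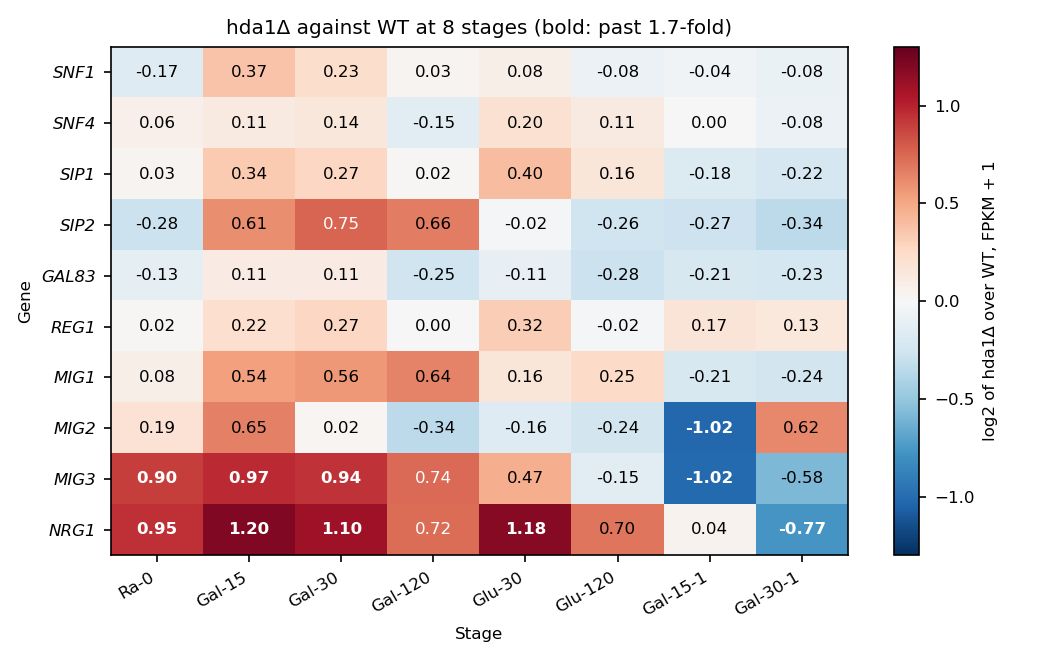
Log2 ratio of hda1Δ over WT (FPKM + 1) for the 10 genes (rows) at 8 stages (columns), 1 library per genotype and stage, with calls past 1.7-fold in bold. The bold cells lie in the rows of MIG2, MIG3 and NRG1 alone, and NRG1 turns from 1.20 at Gal-15 to -0.77 at Gal-30-1.

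NRG1, which encodes a repressor that Snf1 inhibits, was higher in hda1Δ before and during the first galactose pulse and early in glucose. In hda1Δ it had 37.9 FPKM at Ra-0, then 58.3, 51.0 and 30.9 FPKM at 15, 30 and 120 min of galactose, 47.2 and 59.7 FPKM at 30 and 120 min of glucose, and 91.8 and 52.1 FPKM at 15 and 30 min of the second pulse. The WT levels at the same stages were 19.1 FPKM, then 24.8, 23.3 and 18.3, then 20.2 and 36.4, then 89.1 and 89.5. Up to Glu-30 every hda1Δ level lay above every WT level, and that separation ended at Glu-120. The ratio of hda1Δ over WT was 1.93-fold at Ra-0 [1.59 to 2.34], 2.30-fold at Gal-15 [1.97 to 2.68], 2.14-fold at Gal-30 [1.83 to 2.51] and 2.27-fold at Glu-30 [1.92 to 2.69]. It stayed within the rule at Gal-120, at 1.65-fold [1.36 to 2.003], and at Glu-120, at 1.62-fold [1.41 to 1.87]. In the second pulse it was 1.03-fold at 15 min and 0.586-fold at 30 min [0.514 to 0.668], the latest stage and the only one at which NRG1 was called lower. That value lies just past the limit of 0.588 and came within the rule, at 0.598-fold, when libraries were scaled to the sum of their ORFs.

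MIG3, for a zinc-finger relative of Mig1 and Mig2 and the repressor gene of lowest mean level here, was also higher in hda1Δ in raffinose and early in the first galactose pulse. In hda1Δ it had 7.03 FPKM at Ra-0, 9.83, 10.6 and 10.5 FPKM in the first galactose pulse, 25.8 and 22.6 FPKM in glucose, and 18.7 and 11.7 FPKM at Gal-15-1 and Gal-30-1. In WT it had 3.31 FPKM at Ra-0, 4.52, 5.04 and 5.87 FPKM in the first pulse, 18.4 and 25.2 FPKM in glucose, and 38.9 and 18.0 FPKM at Gal-15-1 and Gal-30-1. The hda1Δ levels thus lay above those of WT through raffinose and the first pulse and below them in the second pulse. The ratio was 1.86-fold at Ra-0 [1.38 to 2.51], 1.96-fold at Gal-15 [1.53 to 2.52] and 1.92-fold at Gal-30 [1.51 to 2.43], and 1.67-fold at Gal-120, just inside the rule. At Glu-30 it was 1.38-fold and at Glu-120 0.901-fold. At Gal-15-1 it was 0.495-fold [0.426 to 0.573], and at Gal-30-1 0.667-fold. The 3 called higher rest on WT levels of 3.31 to 5.04 FPKM, and with 5 FPKM added in place of 1 none of them passed.

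With NRG1 and MIG3 called, 2 of the 10 genes were higher in hda1Δ at Ra-0, against 4.90% of tested ORFs, and the same 2 at Gal-15 (7.84% of tested ORFs) and Gal-30 (9.35%). None of the 10 was lower at these stages, against 1.11%, 1.7% and 2.41% of tested ORFs. At Gal-120 none was called higher or lower, against 8.06% higher and 9.79% lower among tested ORFs. At Glu-30 NRG1 alone was higher (5.95%) and none lower (1.39%), and at Glu-120 none was called (5.02% higher and 1.26% lower). In the second pulse none was higher, against 3.52% of tested ORFs at Gal-15-1 and 3.32% at Gal-30-1. Lower were 2 genes at Gal-15-1, MIG2 and MIG3 (5.92% of tested ORFs), and 1 at Gal-30-1, NRG1 (4.69%). The median log2 ratio of the 10 genes was 0.05 at Ra-0, 0.45, 0.27 and 0.03 in the first pulse, 0.18 and -0.05 in glucose, and -0.19 and -0.23 at Gal-15-1 and Gal-30-1. The median of all tested ORFs was 0.01 at Ra-0, 0.09, 0.09 and -0.14 in the first pulse, 0.08 and -0.03 in glucose, and -0.16 and -0.16 at Gal-15-1 and Gal-30-1.

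**Figure D2:**
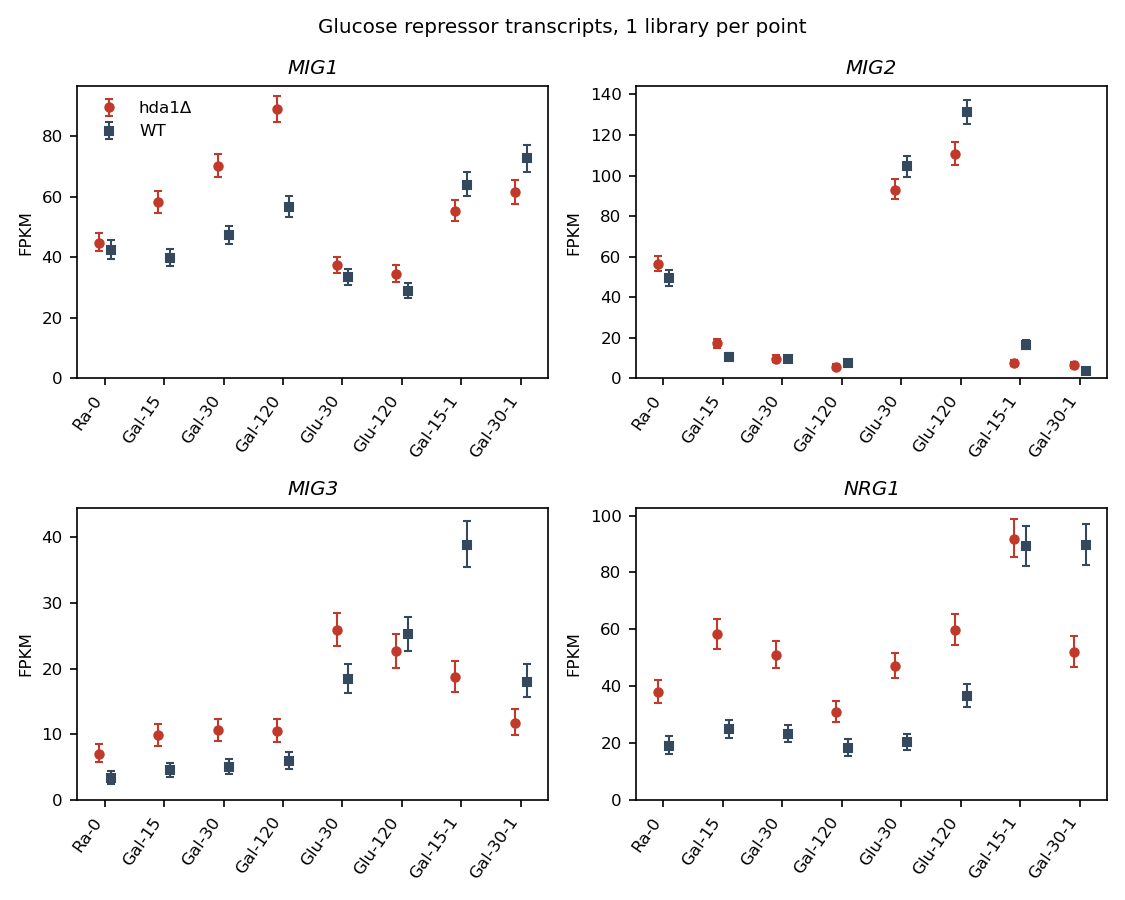
FPKM of the 4 repressor genes at 8 stages, 1 library per point, in hda1Δ (circles) and WT (squares), with 95% counting intervals as bars. NRG1 and MIG3 lie higher in hda1Δ through the first galactose pulse, and MIG2 lies above 90 FPKM in both genotypes in glucose and under 20 FPKM in galactose.

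MIG2, whose product represses many of the same genes as Mig1, followed the sugar far more than the genotype. In hda1Δ it had 56.6 FPKM at Ra-0, then 17.3, 9.81 and 5.69 FPKM in the first galactose pulse, 93.1 and 111 FPKM in glucose, and 7.64 and 6.59 FPKM at Gal-15-1 and Gal-30-1. The WT series ran 49.4 FPKM at Ra-0, 10.7, 9.63 and 7.49 in the first pulse, 104 and 131 in glucose, and 16.6 and 3.92 at Gal-15-1 and Gal-30-1. Both glucose levels lay above all others in each genotype, with raffinose next and every galactose level below it. The highest level was 19.5 times the lowest in hda1Δ and 33.5 times the lowest in WT, the widest span of the 10 genes in either genotype. Between genotypes MIG2 was called at 1 stage, Gal-15-1, at 0.492-fold [0.393 to 0.614]. At Gal-15 it was 1.57-fold and at Gal-30-1 1.54-fold [1.11 to 2.13], both within the rule.

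The regions upstream of MIG2 and MIG3 are shown because both genes rose when glucose replaced galactose and because they share a sequence feature, the word written for Rgt1, CGGANNA. The rise of MIG3 in hda1Δ was within the rule relative to the median of all tested ORFs. In WT the highest MIG3 level, 38.9 FPKM, came in galactose, at Gal-15-1. The word was searched on both strands, and capitals mark each match. Both stretches run 5′ to 3′ in the direction of the gene, from 420 to 201 bases before the start codon, in genome build R64. That of MIG2 is chrVII:95438-95657 on the plus strand and that of MIG3 chrV:212077-212296 on the minus strand.
MIG2: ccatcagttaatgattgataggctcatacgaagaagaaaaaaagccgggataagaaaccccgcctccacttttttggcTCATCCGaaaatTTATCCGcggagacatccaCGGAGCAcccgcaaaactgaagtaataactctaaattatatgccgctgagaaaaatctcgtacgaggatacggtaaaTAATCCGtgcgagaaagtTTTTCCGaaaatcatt
MIG3: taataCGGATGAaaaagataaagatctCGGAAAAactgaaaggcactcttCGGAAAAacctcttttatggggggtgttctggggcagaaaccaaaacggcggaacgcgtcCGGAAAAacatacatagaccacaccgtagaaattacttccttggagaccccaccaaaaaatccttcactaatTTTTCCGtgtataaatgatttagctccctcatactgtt

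Each stretch holds 5 matches, and no others lie within 500 bases of either start codon. Of 6680 ORFs with a full window of 500 bases, 41.8% hold at least 1 match and 0.135% hold 5 or more, which is 9 ORFs. HXT3, a glucose transporter gene, is among these 9. Of the other members, NRG1 has 2 matches, MIG1 and GAL83 have 1 each, and SNF1, SNF4, SIP1, SIP2 and REG1 have none. The windows of 6 of the 10 genes reach into the ORF before them, which lies 151 bases away for MIG1, 220 for REG1, 272 for SIP1, 331 for SIP2 (behind MIG2), 391 for SNF4 and 459 for GAL83 (behind MIG3). A match is a description of letters and was not tested for binding.

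MIG1, for the main glucose repressor of the pathway, ran opposite to MIG2. In hda1Δ it had 44.9 FPKM at Ra-0, then 58.2, 70.1 and 88.8 FPKM in the first galactose pulse, 37.4 and 34.6 FPKM in glucose, and 55.4 and 61.4 FPKM at Gal-15-1 and Gal-30-1. In WT it had 42.5 FPKM at Ra-0, 39.8, 47.3 and 56.6 FPKM in the first pulse, 33.4 and 29.0 FPKM in glucose, and 63.996 and 72.6 FPKM at Gal-15-1 and Gal-30-1. Glucose gave the lowest levels in both genotypes. The highest level came at Gal-120 in hda1Δ and at Gal-30-1 in WT. The ratio of hda1Δ over WT was 1.45-, 1.47- and 1.56-fold [1.45 to 1.68] at the 3 stages of the first pulse, then 1.12- and 1.19-fold in glucose, and 0.867- and 0.848-fold at Gal-15-1 and Gal-30-1, all within the rule.

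The 500 bases before MIG1 hold 4 matches to the word GTGGGG and its variants that begin with CT, GC or CC, searched on both strands as the core written for Mig1 itself. A stretch that holds 3 of the matches, from 330 to 131 bases before the start codon, is shown with them in capitals (chrVII:433193-433392, minus strand, R64). Of the 4 matches, only the one nearest to MIG1 lies in the 151 bases between the genes, and the other 3 lie within the ORF YGL034C.
MIG1: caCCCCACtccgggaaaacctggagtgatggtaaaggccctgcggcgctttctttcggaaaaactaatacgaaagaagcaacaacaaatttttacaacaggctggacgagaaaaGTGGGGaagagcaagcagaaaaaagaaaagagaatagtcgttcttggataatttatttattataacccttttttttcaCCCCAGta
Of the 6680 windows, 23.1% hold at least 1 such match and 0.135% hold 4 or more. MIG3 has 2 matches, MIG2 has 1 and the other 7 genes none. The word CCCTC, written for Nrg1, overlaps the AGGGG type of stress element when read on the other strand. It was found before SNF4 at 2 places and before SNF1, REG1, MIG3 and NRG1 at 1 each, and 36.9% of the windows hold it.

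The ratio of MIG1 to MIG2 in the same library shows how far these genes moved apart. It was 0.793 at Ra-0 in hda1Δ and climbed through 3.36 and 7.15 to 15.6 at Gal-120 [12.5 to 19.7], with 0.402 and 0.313 in glucose and 7.24 and 9.32 at Gal-15-1 and Gal-30-1. In WT it was 0.861 at Ra-0, then 3.73, 4.91 and 7.55 [6.19 to 9.30] in the first pulse, 0.320 and 0.221 in glucose, and 3.86 and 18.5 [13.6 to 25.8] at Gal-15-1 and Gal-30-1. MIG2 transcripts thus outnumbered those of MIG1, per length, in raffinose and glucose and were fewer in galactose, in both genotypes. The ratio was higher in hda1Δ than in WT at Gal-30, Gal-120, Glu-30, Glu-120 and Gal-15-1 and lower at Gal-30-1, with counting intervals that do not overlap. At Ra-0 and Gal-15 the intervals overlapped.

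**Figure D3:**
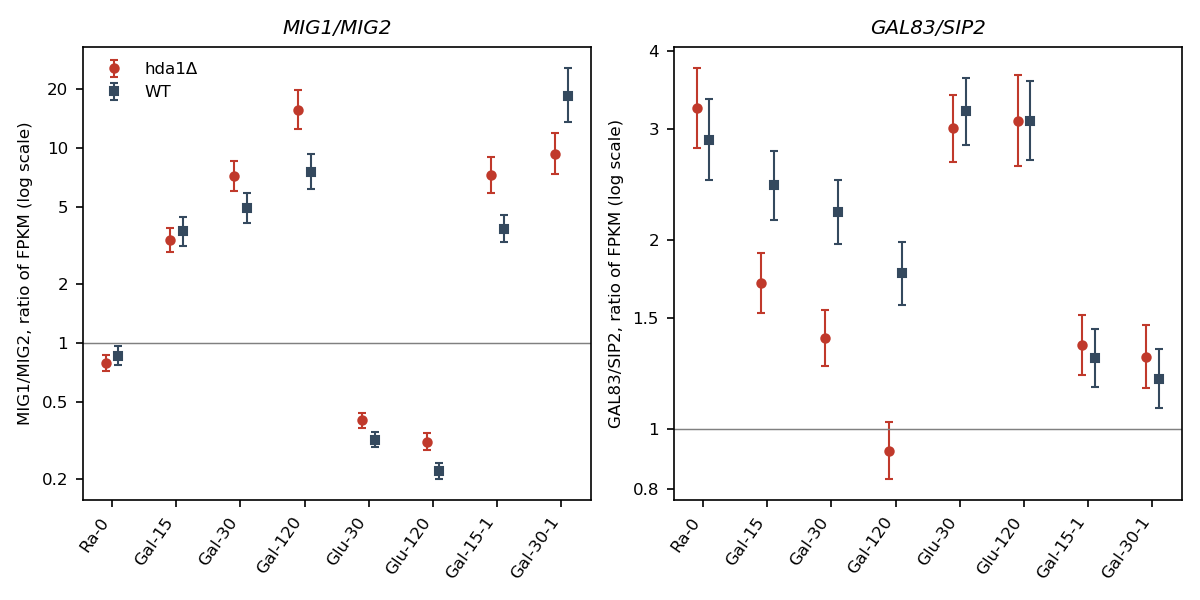
Ratio of MIG1 to MIG2 (left) and of GAL83 to SIP2 (right), each from FPKM within 1 library and on a log axis, at 8 stages in hda1Δ (circles) and WT (squares), with 95% counting intervals as bars. MIG1 exceeds MIG2 only in galactose, and GAL83 exceeds SIP2 in every library except hda1Δ at Gal-120, where the ratio is 0.923.

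Among the kinase genes SIP2, for a beta subunit, varied most. In hda1Δ it had 14.9 FPKM at Ra-0, then 32.9, 40.5 and 47.3 FPKM in the first galactose pulse, 20.7 and 13.4 FPKM in glucose, and 38.8 and 42.4 FPKM at Gal-15-1 and Gal-30-1. In WT it had 18.3 FPKM at Ra-0, 21.3, 23.7 and 29.5 FPKM in the first pulse, 21.1 and 16.3 FPKM in glucose, and 47.1 and 54.0 FPKM at Gal-15-1 and Gal-30-1. The hda1Δ level was above that of WT in the first pulse and below it in the second, and both were lowest at 120 min of glucose. The ratio of hda1Δ over WT was 1.52-fold at Gal-15 [1.33 to 1.74], 1.68-fold at Gal-30 [1.49 to 1.90] and 1.58-fold at Gal-120 [1.41 to 1.77]. It was 0.828-fold at Gal-15-1 and 0.789-fold at Gal-30-1. None of these passed the rule, though the Gal-30 value lay just below it and passed in TPM, with 0.1 FPKM added and with libraries scaled to the sum of their ORFs. The Gal-30 value did not pass relative to the median of all tested ORFs, at 0.665 log2, or with 5 FPKM added.

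GAL83, for the beta subunit of the nuclear form of the kinase in glucose-poor medium, spanned 41.4 to 62.4 FPKM in hda1Δ (median 54.0) and 50.3 to 67.4 FPKM in WT (median 52.6). SIP1, for the beta subunit found at the vacuole, spanned 23.9 to 45.1 FPKM in hda1Δ (median 34.7) and 23.6 to 47.1 FPKM in WT (median 30.5). In both genotypes GAL83 was highest at Glu-30 and lowest at Glu-120, and SIP1 was lowest at Gal-120. In each genotype 6 of the 7 steps between neighbouring ranks of GAL83, and 4 for SIP1, had a counting interval that holds 1. The order of the beta subunits by level turned on SIP2. Of the summed FPKM of the 3 genes, SIP2 made up 41.2% at Gal-120, 15.9% at Ra-0 and 14.9% at Glu-120 in hda1Δ. In WT it made up 28.0%, 18.1% and 16.6% at the same stages, and 32.5% at Gal-30-1. The ratio of GAL83 to SIP2 was 0.923 at Gal-120 in hda1Δ [0.830 to 1.03], against 1.77 in WT [1.57 to 1.99], while at Ra-0 it was 3.24 in hda1Δ and 2.89 in WT.

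SNF1, SNF4 and REG1 were not called between any stages compared, but their levels were not constant. SNF1, the catalytic subunit gene, had 57.5 to 87.4 FPKM in hda1Δ (median 74.2) and 60.7 to 90.7 FPKM in WT (median 68.0). SNF4, for the subunit that relieves autoinhibition of the kinase, had 72.0 to 119 FPKM in hda1Δ (median 101) and 80.1 to 126 FPKM in WT (median 95.3). REG1 had 73.3 to 126 FPKM in hda1Δ (median 90.4) and 74.4 to 115 FPKM in WT (median 79.1). Each of these 3 had its highest levels in the second galactose pulse in both genotypes. Of the 7 steps between neighbours in the ranked levels of SNF1, 5 in hda1Δ and 6 in WT had a counting interval that holds 1. Levels farther apart did differ beyond counting error, as SNF1 at Gal-15-1 was 1.51-fold its Glu-120 level in hda1Δ [1.41 to 1.62] and 1.48-fold in WT [1.38 to 1.58], and REG1 at Gal-30-1 was 1.71-fold its Glu-120 level in hda1Δ [1.63 to 1.80]. For REG1, the most deeply counted of the 10, the interval held 1 at 2 of 7 steps in hda1Δ and 4 in WT. For MIG2 it held 1 at 3 of 7 and 2 of 7. Over SNF1, SNF4, SIP1, GAL83 and REG1 at the 8 stages, the ratio of hda1Δ over WT ran from 0.826 for GAL83 at Glu-120 to 1.32 for SIP1 at Glu-30.

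**Figure D4:**
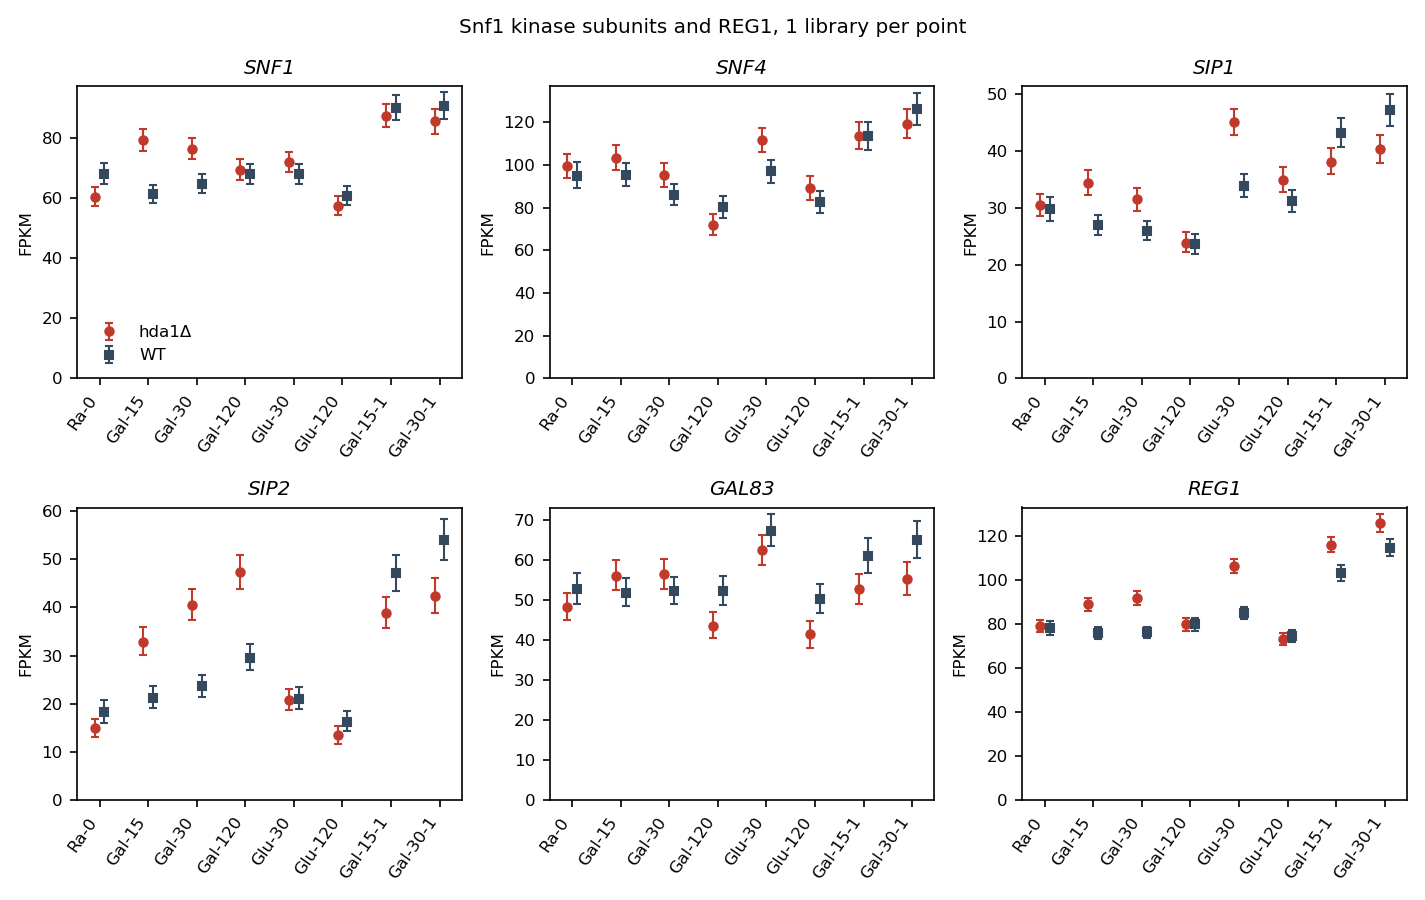
FPKM of the 5 kinase subunit genes and REG1 at 8 stages, 1 library per point, in hda1Δ (circles) and WT (squares), with 95% counting intervals as bars. SIP2 separates by genotype in the first galactose pulse, at 47.3 FPKM in hda1Δ and 29.5 FPKM in WT at Gal-120, while the other genes stay within 0.826- to 1.32-fold.

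Whole libraries also differed between the genotypes. The median of all tested ORFs lay farthest from 0 at Gal-120 and in the second pulse. Transcripts of RNA genes took 15.7% of the gene-aligned bases of hda1Δ at Gal-120, against 10.2% in WT, and 14.7% at Gal-15-1, against 11.7% in WT. At Gal-30-1, where the median lay as far from 0, the share was 13.9% in hda1Δ and 14.0% in WT, and its part in the ratios was not tested. Relative to the median of all tested ORFs, MIG3 was 1.85-fold, NRG1 1.83-fold, SIP2 1.75-fold and MIG1 1.72-fold at Gal-120, each past the rule. On the same scale MIG2 was 0.550-fold and MIG3 0.554-fold at Gal-15-1, still lower, NRG1 at Gal-30-1 was 0.654-fold, within the rule, and MIG2 at Gal-30-1 was 1.72-fold, now called higher.

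Changes between stages were read within each genotype. Of 100 values (10 genes over 10 stage comparisons), 8 were higher, 8 lower and 84 within 2-fold in hda1Δ, and 16, 6 and 78 in WT. By comparison, 1.39% to 28.6% of tested ORFs were higher and 1.53% to 21.6% lower in hda1Δ. In WT the shares were 1.60% to 20.4% higher and 0.833% to 19.4% lower. The comparisons of a genotype share stages and so are not independent of each other. All calls fell on SIP2, MIG1, MIG2, MIG3 and NRG1. Over SNF1, SNF4, SIP1, GAL83 and REG1 the changes ran from 0.669- to 1.85-fold in hda1Δ and from 0.751- to 1.79-fold in WT.

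From raffinose to galactose MIG2 fell in both genotypes. In hda1Δ it was 0.318-fold at 15 min, 0.188-fold at 30 min and 0.116-fold at 120 min [0.0948 to 0.142], where 1.53%, 3.33% and 15.3% of tested ORFs were lower. In WT it was 0.232-, 0.211- and 0.169-fold [0.139 to 0.203], where 0.833%, 1.29% and 1.75% were lower. SIP2 rose past 2-fold in hda1Δ, at 2.13-, 2.61- and 3.04-fold [2.64 to 3.50], with 4.39%, 6.22% and 7.45% of tested ORFs higher. In WT the values for SIP2 were 1.15-, 1.28- and 1.58-fold [1.36 to 1.85], and none of the 10 genes was called higher there (2.38%, 3.15% and 4.11% of tested ORFs). At 120 min MIG1 was 1.96-fold in hda1Δ and 1.32-fold in WT, both within the rule. Relative to the median of all tested ORFs, which was -0.33 log2 there in hda1Δ, MIG1 in hda1Δ was 1.296 log2 and past the rule, as it was when libraries were scaled to the sum of their ORFs. The first-pulse values of each genotype share 1 raffinose library.

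From galactose to glucose, MIG2 and MIG3 rose in both genotypes. MIG2 at Glu-30 was 14.1-fold its Gal-120 level in hda1Δ [11.6 to 17.2] and 12.4-fold in WT [10.4 to 14.9]. MIG3 was 2.34-fold in hda1Δ [1.97 to 2.79] and 2.83-fold in WT [2.28 to 3.52]. That made 2 of the 10 genes higher in each genotype, against 28.6% of tested ORFs in hda1Δ and 10.1% in WT. SIP2 and MIG1 fell in hda1Δ, to 0.450-fold and 0.427-fold (5.70% of tested ORFs were lower), and were 0.722-fold and 0.598-fold in WT, where none was called (4.03%). Here the median of all tested ORFs stood at 0.56 log2 in hda1Δ and 0.34 log2 in WT, and relative to it MIG3 in hda1Δ was within the rule while MIG1 in WT was lower. Between 30 and 120 min of glucose no gene was called in either genotype, against 1.84% of tested ORFs higher and 6.12% lower in hda1Δ, and 1.96% higher and 6.39% lower in WT. NRG1 came nearest in WT, at 1.76-fold [1.48 to 2.11], with 1.26-fold in hda1Δ, and relative to the median of all tested ORFs it was 1.04 log2 in WT, past the rule.

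From glucose to the second galactose pulse, SIP2 rose and MIG2 fell in both genotypes. SIP2 was 2.76-fold at 15 min and 3.01-fold at 30 min in hda1Δ, and 2.78- and 3.19-fold in WT. MIG2 was 0.0774- and 0.0679-fold in hda1Δ [0.0551 to 0.0832 at 30 min], and 0.133- and 0.0372-fold in WT [0.0288 to 0.0478 at 30 min]. In WT NRG1 rose too, at 2.41- and 2.42-fold, as did MIG1, at 2.17- and 2.46-fold. In hda1Δ NRG1 was 1.53- and 0.874-fold and MIG1 1.58- and 1.75-fold, all within the rule. At 15 min 1 gene was higher in hda1Δ (12.8% of tested ORFs) and 3 in WT (14.4%), with 1 lower in each (17.5% in hda1Δ and 11.4% in WT). The same numbers held at 30 min, against 16.8% higher in hda1Δ and 20.4% in WT, and 21.6% lower in hda1Δ and 19.4% in WT. In hda1Δ the share of the 10 genes that was called was thus no larger than that of all tested ORFs in either direction.

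**Figure D5:**
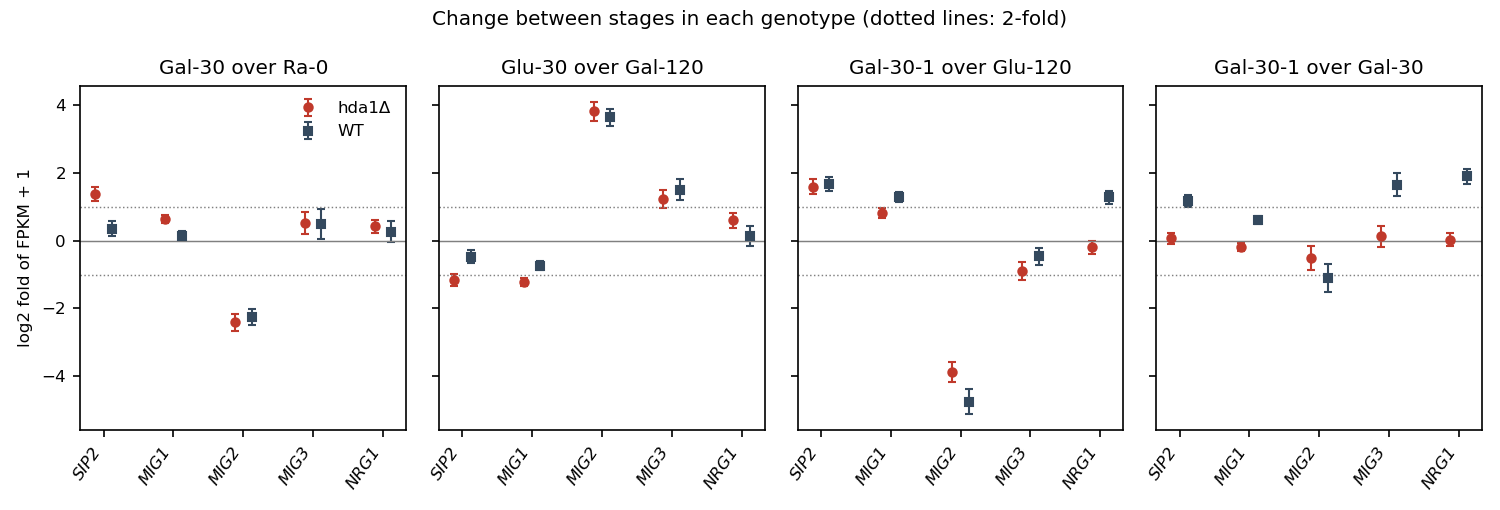
Log2 fold of FPKM + 1 between stages for SIP2, MIG1, MIG2, MIG3 and NRG1 in hda1Δ (circles) and WT (squares), with 95% counting intervals as bars, for 4 of the 10 stage comparisons. MIG2 falls in galactose and rises in glucose in both genotypes, and SIP2, MIG3 and NRG1 lie above the 2-fold line in WT alone where the second pulse is set against the first, though SIP2 comes within it relative to the median of all tested ORFs.

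The second galactose pulse could be set against the first at the same times. In WT SIP2, MIG3 and NRG1 were higher in the second pulse at both times. At 15 min SIP2 was 2.16-fold [1.90 to 2.46], MIG3 7.22-fold [5.83 to 8.98] and NRG1 3.49-fold [3.01 to 4.06], and 11.2% of tested ORFs were higher. At 30 min they were 2.23-, 3.15- and 3.73-fold [3.21 to 4.35 for NRG1], with 17.5% higher. At 15 min none of the 10 genes was lower in WT (6.51% of tested ORFs). MIG2 in WT was 1.51-fold at 15 min and fell to 0.463-fold at 30 min [0.346 to 0.619], where 14.5% of tested ORFs were lower. In hda1Δ SIP2, MIG3 and NRG1 were 1.17-, 1.82- and 1.57-fold at 15 min and 1.05-, 1.09- and 1.02-fold at 30 min, with no call in the higher direction (4.97% of tested ORFs at 15 min, 6.31% at 30 min). MIG2 in hda1Δ fell to 0.472-fold at 15 min [0.380 to 0.584], where 10.5% were lower, and was 0.702-fold at 30 min, where 14.1% were lower and none of the 10 genes was. For each of MIG3 and NRG1 the intervals of the 2 genotypes do not overlap at either time, but the difference between genotypes has no replicate and was not tested. Relative to the median of all tested ORFs, which was 0.13 and 0.26 log2 in WT, MIG3 and NRG1 remained higher at both times and SIP2 came within the rule at both. In hda1Δ, where the median was -0.10 log2 at 15 min, MIG2 came within the rule at -0.98 log2, and it did so too with 5 FPKM added.

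Glucose at 120 min was also set against the raffinose start. MIG3 was 2.94-fold its Ra-0 level in hda1Δ [2.40 to 3.5998] and 6.08-fold in WT [4.68 to 7.91]. MIG2 was 1.94-fold in hda1Δ [1.78 to 2.11], just within the rule, and 2.63-fold in WT [2.40 to 2.88]. Hence 1 gene was higher in hda1Δ (1.39% of tested ORFs) and 2 in WT (1.60%), and none was lower (1.63% in hda1Δ and 1.97% in WT).

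By correlation of log2(FPKM + 1) over the 16 libraries, each gene was matched to the ORFs most like it among 5006 with a mean of at least 10 FPKM. The libraries share cultures and normalization, so r is given as a description. MIG2 lay closest to STD1, for a partner of Snf1 that also acts on Rgt1 (r = 0.989), and to IZH1, for a membrane protein of zinc metabolism (0.973). MIG3 lay closest to the glucose transporter genes HXT3 (0.939) and HXT1 (0.922). NRG1 lay closest to RSF2, for a zinc-finger protein (0.970), and FAR10 (0.930), and MIG1 to PHR1, the photolyase gene (0.960), and MPC3, for a mitochondrial pyruvate carrier (0.959). SIP2 lay closest to YLR271W and to RMD5, for a ubiquitin ligase of gluconeogenic enzymes (both 0.986). For SNF1 these were CBS2 (0.969) and MDR1 (0.957), for SNF4 PET111 (0.972) and COQ6 (0.966), for SIP1 ISA1 (0.975) and TAM41 (0.954), for GAL83 MVP1 (0.912) and AMN1 (0.903), and for REG1 EDE1 (0.974) and PBP1 (0.973). Among the 10 themselves SIP2 and MIG1 were most alike (0.891) and MIG1 and MIG2 most unlike (-0.849). Neighbours on the chromosome were not alike: r was -0.825 for MIG2 and SIP2 and 0.277 for MIG3 and GAL83.

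Genes that act on the kinase were listed next: SAK1, TOS3 and ELM1 for its upstream kinases, GLC7, REG2 and SIP5 for the phosphatase, and HXK2 for the hexokinase that works with Mig1. Of these 7, REG2, a relative of REG1, was higher in hda1Δ at 6 of the 8 stages, with 3.05-fold at Gal-30 (29.3 FPKM in hda1Δ and 8.92 in WT) as the highest and 1.49-fold at Gal-30-1 as the lowest. SIP5 was higher at 1 stage. HXK2 was the only one lower, at Gal-120, at 0.522-fold (484 FPKM in hda1Δ and 928 in WT), where 9.79% of tested ORFs were lower. It was 1.54-fold at Gal-30-1. So 1 of 7 was higher at Ra-0, Gal-15, Gal-120, Glu-30 and Gal-15-1, 2 at Gal-30 and none at Glu-120 and Gal-30-1, against 3.32% to 9.35% of tested ORFs over the stages. The median log2 ratio of this list ran from -0.28 at Gal-120 to 0.18 at Gal-15, against -0.14 and 0.09 for all tested ORFs. REG1 itself ran from 0.984- to 1.25-fold over the 8 stages.

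Of the co-repressor genes CYC8 and TUP1, NRG1's relative NRG2 and the exportin gene MSN5, which carries Mig1 out of the nucleus, only NRG2 was called, at Glu-30 (2.01-fold, 23.1 FPKM in hda1Δ and 11.0 in WT). At Glu-30 5.95% of tested ORFs were higher, and over all stages 3.32% to 9.35% were higher and 1.11% to 9.79% lower. NRG2 was 0.720- to 0.892-fold at the other stages up to Glu-120, so it did not follow NRG1. CYC8 ran from 0.927-fold at Gal-120 to 1.51-fold at Glu-30. The median of these 4 genes ran from -0.26 log2 at Gal-120 to 0.41 log2 at Glu-30, against -0.14 and 0.08 for all tested ORFs.

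Activators of glucose-repressed genes, several of them targets of Snf1 or Mig1, were called higher 9 times over 5 genes and 8 stages, where 3.32% to 9.35% of tested ORFs were higher. CAT8 was higher at 5 stages, from Gal-15 to Glu-120, with 2.64-fold at Gal-30 (47.3 FPKM in hda1Δ and 17.3 in WT), and stood at 1.03- and 0.860-fold in the second pulse. SIP4 was higher at 4 stages, up to 2.31-fold at Gal-15, but at levels of 0.738 to 12.5 FPKM. RDS2 was lower at Gal-15-1, at 0.556-fold, where 5.92% of tested ORFs were lower, and ADR1 and HAP4 were not called. The median log2 ratio of the list was 0.60, 0.54 and 0.41 in the first pulse, against 0.09, 0.09 and -0.14 for all tested ORFs, and -0.23 and -0.09 in the second pulse, against -0.16 and -0.16.

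Beside the repressors stand 11 glucose-repressed target genes. These are HXK1, for a hexokinase, and genes for gluconeogenesis, the glyoxylate cycle and the use of sucrose, ethanol, acetate, lactate and glycerol. Of these 11, in hda1Δ 2 were higher at Ra-0, then 4, 7 and 7 in the first galactose pulse, 3 and 5 on glucose, and 4 at each stage of the second pulse. The shares of tested ORFs called higher were 4.90% at Ra-0, 7.84%, 9.35% and 8.06% in the first pulse, 5.95% and 5.02% on glucose, and 3.52% and 3.32% at Gal-15-1 and Gal-30-1. ADH2 at Glu-30 was the only one lower, at 0.435-fold, where 1.39% of tested ORFs were lower. The ratio of ADH2 was above 1 at 4 of the 8 stages. That of SUC2, for the use of sucrose, was above 1 at 6 stages, but 0.643-fold at Ra-0 [0.627 to 0.660], within the rule. PCK1, for the gluconeogenic enzyme PEP carboxykinase, was higher at all 8 stages, from 2.37-fold at Gal-15-1 to 3.59-fold at Gal-120 (18.4 FPKM in hda1Δ and 4.38 in WT). CYB2, for lactate dehydrogenase, was higher at 5 stages, with 4.48-fold at Gal-15 and 1.10-fold at Gal-30-1. ACS1, for acetyl-CoA synthetase, and JEN1, for the lactate carrier, were each higher at 5 stages, though ACS1 was 0.682-fold at its lowest. MLS1, for malate synthase, was higher at 4 stages and FBP1, for fructose-1,6-bisphosphatase, at 3. The first-pulse calls of MLS1 and FBP1 rest on low levels. At Gal-30 MLS1 had 3.35 FPKM in hda1Δ and 1.45 in WT, and FBP1 had 3.45 and 1.29. The median log2 ratio of the list was 0.20 at Ra-0, 0.69, 0.83 and 0.89 in the first pulse, 0.41 and 0.63 on glucose, and 0.61 and 0.44 once galactose returned, each above the median of all tested ORFs at its stage. This list and those before it were chosen with earlier results of these data known, so their counts and medians are descriptions and not tests.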

How the data were processed

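The authors extracted RNA with hot phenol, used a NEXTflex Rapid Directional kit for mRNA libraries, and read these on a HiSeq2500 instrument. Per the labels and processing notes they used FastQC 0.11.5, HISAT2 2.0.4, SAMtools, StringTie 1.3.0 and bedtools 2.26.0 with build R64. The 16 tables deposited by the authors hold coverage, FPKM and TPM per transcript of Ensembl release 86, and their headers show no strand option. Deposited FPKM was used without further scaling, which ties a value to the rest of its library.

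Coverage times length gave aligned bases, and 202 bases were counted as 1 fragment. Nuclear ORFs with a mean FPKM of at least 1 were tested. Folds used FPKM plus 1. Counting intervals are 95% exact binomial for folds and ratios and exact Poisson for levels. With 1 library per genotype and stage, no test over replicates was run. The members and gene lists were chosen with earlier results of these data known.

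Named genes were the 10 members, HDA1, the 2 ORFs most correlated with each member, and of each list the members with the highest and lowest mean log2 ratio over 8 stages and any called in 1 direction at 3 or more stages. TOS3, SAK1, ELM1, GLC7, SIP5, TUP1, MSN5, ADR1, HAP4, SUC2 and HXK1 are named as list members, and values of SIP5 and SUC2 were named after they were seen.

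Upstream sequence was read from the RefSeq copy of R64, where 5994 of 6006 ORFs found by locus tag have the same start and end as in the files. Alternatives were pseudocounts of 0.1 and 5, TPM, centring on the median ORF, scaling to the ORF sum, thresholds of 2-fold (3-fold for stages), calls whose interval must exclude 1, no expression minimum, and leaving out each stage or library. The calls and intervals were tested on simulated Poisson counts for the comparison of genotypes at Gal-30. The intervals assume that same noise, so the simulation says nothing of variation between cultures. Scripts ran in Python 3.11.15 with SciPy 1.17.1, pandas 2.3.3, matplotlib 3.10.9 and NumPy 2.4.6.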

Additional observations from a re-analysis of the deposited data

Results flagged for a closer look

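MIG2 moved in opposite directions in the genotypes when the second galactose pulse was set against the first at 15 min. It was 0.472-fold in hda1Δ and 1.51-fold in WT, and each counting interval lies on its own side of 1. The values rest on 7.64 and 17.3 FPKM in hda1Δ and on 16.6 and 10.7 FPKM in WT, with 1 library each, and the difference was not tested. At 30 min the values were 0.702-fold in hda1Δ and 0.463-fold in WT, below 1 in both. The hda1Δ value at 15 min came within the 2-fold rule when centred on the median ORF and with 5 FPKM added.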

How the results depend on the processing

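No paired analysis was possible because each genotype had 1 library at each stage and so no replicate numbers are shared. The 8 stages match the genotypes as different conditions, and means over stages are given without a test. Of the 10 calls between genotypes (7 higher and 3 lower), higher calls numbered 4 with 5 FPKM added, 3 with a 2-fold rule and 12 when centred on the median ORF, and lower calls stayed at 2 or 3. MIG3 lost all 3 of its higher calls with 5 FPKM added and with the 2-fold rule, and NRG1 kept 3 of its 4 higher calls under the 2-fold rule. The lower call of NRG1 at Gal-30-1 was lost with 5 FPKM added, in TPM, when centred, when scaled to the ORF sum and at 2-fold. With a 3-fold rule for stage changes, calls in hda1Δ numbered 3 higher and 5 lower, and in WT 7 higher. Centring left 0 activators lower. Requiring the interval to exclude 1 removed no call of the 10 genes. The mean log2 ratio of NRG1 over 8 stages, 0.64, ran from 0.56 to 0.84 with 1 stage left out, and that of MIG3, 0.28, from 0.18 to 0.47. No called value changed sign under these alternatives. Depth limits MIG2 and MIG3 most, which had as few as 42 and 41 fragments in a WT library.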
